A study of Bos indicus with 5 samples.

Results

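The genes described are 10 regulators of multiciliated cell fate: MCIDAS, FOXN4, CCNO, E2F4, E2F5, TP73, MYB, RFX2, RFX3 and FOXJ1. They were taken by gene symbol from a table of 24616 genes measured by RNA sequencing in the ampulla of the bovine oviduct. The ampulla is the site of fertilization. Each symbol matched 1 entry of the table, and all 10 genes had a mean value above the minimum of 5 normalized reads that 15815 genes passed. The study asked how the endocrine state around ovulation relates to the transcriptome of the oviduct in Nelore (Bos indicus) cows.

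All cows were multiparous and carried a progesterone device with estradiol benzoate, and then received a prostaglandin F analog at device removal and GnRH to induce ovulation. In cows of LF/LCL, which had a large follicle before and a large corpus luteum after ovulation, the device was withdrawn 42 h before GnRH, after an additional prostaglandin F dose at its insertion. In cows of SF/SCL, where follicle and corpus luteum were small, it was withdrawn 30 h before GnRH without that additional dose. Ampulla tissue of full thickness was taken on day 4 from the side of the corpus luteum, and each library came from a different cow. There were 2 LF/LCL and 3 SF/SCL libraries, from cows that the study selected as the extremes of their group by ovarian and hormone measurements. Another LF/LCL library of the ampulla had been dropped by the study for poor quality and few reads.

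Multiciliated cells stop dividing, produce many centrioles, dock them under the apical membrane as basal bodies and grow a motile cilium from each. In the oviduct their beating helps to move the gametes and the early embryo. GMNC and MCIDAS, both relatives of the replication inhibitor geminin, start this programme where Notch signalling is low, and MCIDAS acts in a complex with E2F4 or E2F5. CCNO, MYB, TP73 and FOXN4 act in the early steps of the programme. The RFX factors and FOXJ1 switch on the genes of the cilium itself.

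The libraries held between 13418278 (LF/LCL replicate 1) and 19592174 (SF/SCL replicate 2) reads counted in genes, and between 17431 and 17653 genes had a read. The values below are normalized reads, which are reads divided by a size factor for each library. Of 49 listed markers of ciliated cells 45 were measured, and all 45 passed the minimum of 5 normalized reads. Their summed value was 121143 to 148324 in LF/LCL and 166314 to 186441 in SF/SCL. Secretory cell markers summed to 167387 to 188492 and 159502 to 188796. Most of that sum was OVGP1, the oviductal glycoprotein, at 117179 to 147247 over the 5 libraries. The mean log2 value of the secretory markers, where each entry weighs the same, did not overlap. It was 10.80 to 11.01 in LF/LCL and 9.68 to 10.33 in SF/SCL. This mean holds 2 entries of FOLR1, with log2 fold changes (LF/LCL minus SF/SCL) of 3.64 and 4.46, and LTF, at 3.03. These were the largest of its 15 entries, of which 11 were higher and 4 lower in LF/LCL. The smooth muscle sums were further apart, with 89066.9 to 162234 in LF/LCL and 29283 to 61489.2 in SF/SCL. The lowest of these was in SF/SCL replicate 3. Because the tissue was whole, fewer cells of a type and less RNA per cell cannot be told apart in any value given here.

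The mean of 9 of the 10 regulators, all but CCNO, was lower in LF/LCL on the log2 scale (6 of 10 without SF/SCL replicate 2). Their median log2 fold change (LF/LCL minus SF/SCL) was -0.23 (-0.36 without SF/SCL replicate 3), beside a median of 0.01 and a share of 49.2% below 0 over all genes tested. In 4 regulators, FOXJ1, RFX2, TP73 and MYB, both LF/LCL values lay below all 3 SF/SCL values, and in the other 6 the groups overlapped. Over all genes tested 15.1% were lower without overlap and 15.0% higher, 30.1% in all. At an unadjusted limma p under 0.05, 3 of them (FOXJ1, RFX2 and TP73) were lower and 0 higher, against 5.86% of all genes lower and 5.64% higher (11.5% in all). None of the 10 passed an adjusted p of 0.05 with limma, the test used throughout, which called 0.0% of all genes. On reads recovered from the values, the edgeR quasi-likelihood test also called 0 of the 10 and 0.0% of all genes. The same 3 regulators had an unadjusted edgeR p under 0.05, as did 11.6% of all genes, 5.67% lower. DESeq2 on those reads called RFX2 and TP73, 2 of the 10, as lower, where it called 2.91% of all genes, 1.5% as lower and 1.4% as higher.

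**Figure D1:**
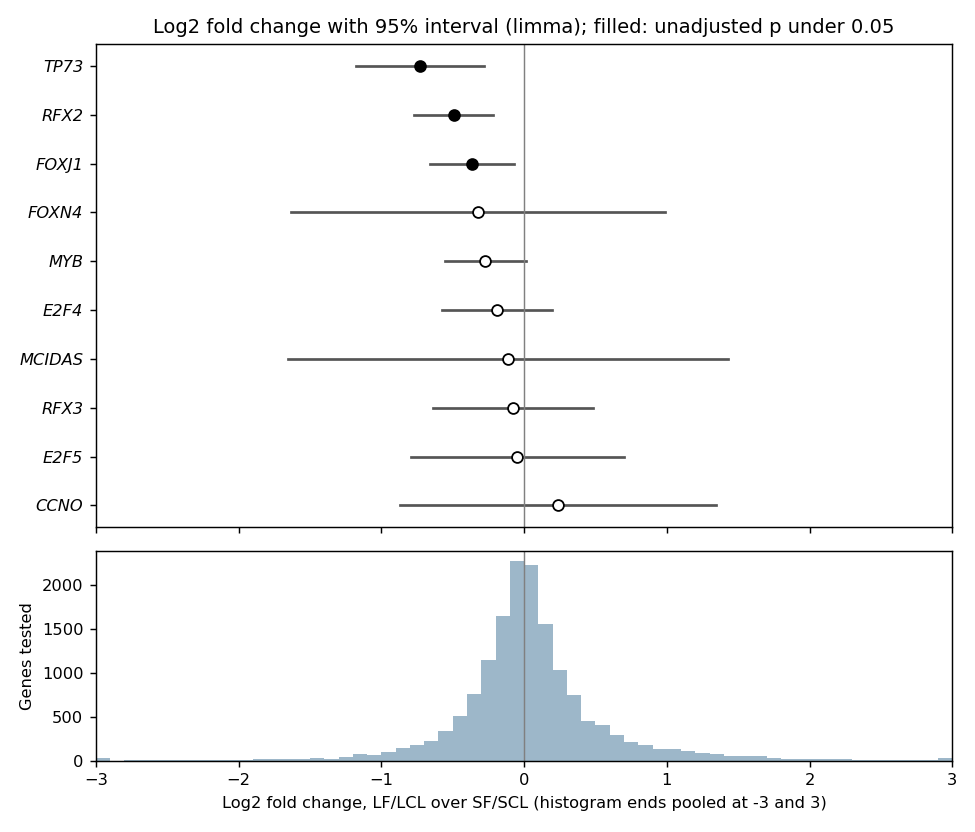
Log2 fold change of each regulator (LF/LCL minus SF/SCL, x axis) with its 95% confidence interval from limma, above a histogram of the fold changes of all 15815 genes tested. The intervals of TP73, RFX2 and FOXJ1 lie below 0, while those of the other 7 genes hold 0 and are widest for MCIDAS (-1.65 to 1.43) and FOXN4 (-1.63 to 0.99).

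FOXJ1 (ENSBTAG00000007916), the forkhead factor that switches on the genes of motile cilia, was deeply read in every library. Its values were 8481 and 9373 normalized reads in LF/LCL, against 11197, 12698 and 10647 in SF/SCL. There was no overlap, and the gap between the highest LF/LCL and the lowest SF/SCL value was larger than the gap between the LF/LCL replicates. The means were 8928 ± 631 (SD, n = 2) and 11514 ± 1062 (SD, n = 3), a 1.29-fold lower level in LF/LCL. Its log2 fold change was -0.36 ± 0.12 (SE), with a 95% interval of -0.66 to -0.07, an unadjusted p of 0.0231 and an adjusted p of 0.362. Leaving out LF/LCL replicate 1 gave an unadjusted p of 0.117, and leaving out replicate 1 or replicate 2 of SF/SCL gave 0.0511 or 0.0678.

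RFX2 (ENSBTAG00000017661) encodes a winged-helix factor that binds X-box motifs of ciliary genes and works together with FOXJ1. It was measured at 1412 and 1437 normalized reads in LF/LCL, against 1818, 2184 and 2034 in SF/SCL. The LF/LCL libraries were nearly equal, and both lay well below the SF/SCL range. The means were 1425 ± 17.9 (SD, n = 2) and 2012 ± 184 (SD, n = 3), which is 1.41-fold lower in LF/LCL. The log2 fold change of -0.49 ± 0.11 (SE, 95% interval -0.77 to -0.22) had an unadjusted p of 0.00449 and an adjusted p of 0.263 with limma. DESeq2 gave an adjusted p of 0.0285 and edgeR 0.271. With any 1 library left out, the log2 fold change remained between -0.56 and -0.43.

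RFX3 (ENSBTAG00000000819), the relative of RFX2 that also acts in primary cilia, did not show the same order of libraries. It was measured at 499.6 and 542.0 normalized reads in LF/LCL, against 635.3, 643.5 and 403.5 in SF/SCL. SF/SCL replicate 3 was the lowest of all 5 libraries, and the other SF/SCL libraries were the highest. The means were 521 ± 30.0 (SD, n = 2) and 561 ± 136 (SD, n = 3), and the log2 fold change of -0.08 ± 0.23 (SE) had a 95% interval of -0.64 to 0.48 (adjusted p = 0.935). Leaving out SF/SCL replicate 3 gave -0.30, leaving out replicate 1 of that group 0.030 and leaving out replicate 2 gave 0.039.

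The balance between the RFX genes therefore differed by library. The log2 ratio of RFX2 to RFX3 was 1.497 and 1.405 in LF/LCL, against 1.52, 1.76 and 2.33 in SF/SCL. Both LF/LCL values were below the SF/SCL values, but by a narrow margin for SF/SCL replicate 1, and the highest ratio was in SF/SCL replicate 3. The difference of the means was -0.42 (pooled SD 0.34), with an exact two-sided permutation p of 0.2. That is the smallest p that 2 against 3 libraries allow, and this ratio was added after the values had been seen.

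TP73 (ENSBTAG00000005812), a member of the p53 family that acts upstream of FOXJ1 in multiciliated cells, had the largest log2 fold change of the 10 genes. Its values were 668.5 and 734.7 normalized reads in LF/LCL, against 1117, 972.2 and 1454 in SF/SCL. These ranges were apart, and SF/SCL replicate 3 stood highest. The means were 702 ± 46.8 (SD, n = 2) and 1181 ± 247 (SD, n = 3), a 1.66-fold lower level in LF/LCL. On the log2 scale the change was -0.73 ± 0.18 (SE, 95% interval -1.18 to -0.28), with an unadjusted p of 0.00705 and an adjusted p of 0.298. DESeq2 gave an adjusted p of 0.0393 and edgeR 0.309. Without SF/SCL replicate 3 the log2 fold change was -0.57, and without SF/SCL replicate 2 it was -0.86.

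MYB (ENSBTAG00000012074), a transcription factor of dividing progenitor cells that also promotes centriole amplification, was measured at 1868 and 1666 normalized reads in LF/LCL, against 1971, 2117 and 2322 in SF/SCL. Here too the ranges were apart, though LF/LCL replicate 1 lay near SF/SCL replicate 1. The means were 1767 ± 143 (SD, n = 2) and 2137 ± 176 (SD, n = 3). The log2 fold change of -0.27 ± 0.12 (SE) had a 95% interval from -0.56 to 0.01 and an adjusted p of 0.453. MYB is also expressed in lymphoid cells, and of 18 tested immune cell markers 15 were higher in LF/LCL, 9 of them without overlap and 6 at an unadjusted p under 0.05. The other 3 were lower in LF/LCL, 1 of them without overlap. The summed immune markers overlapped (13851.6 to 24607.7 in LF/LCL, 12161.8 to 23718.5 in SF/SCL), and most of that sum was CD74, which antigen-presenting cells express. The part of immune cells in the MYB value was not tested.

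**Figure D2:**
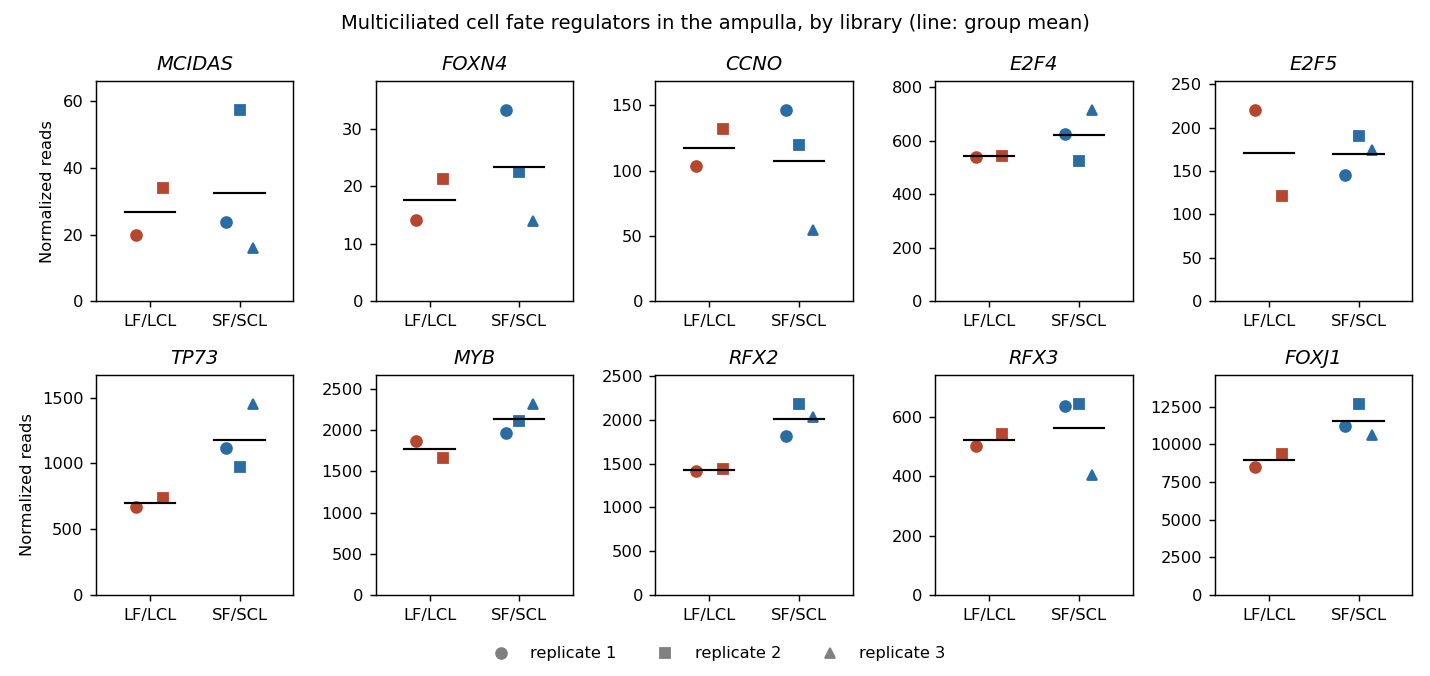
Normalized reads of each regulator in the 5 libraries, with group means as lines and a linear axis of its own for every gene. FOXJ1, RFX2, TP73 and MYB are lower in both LF/LCL libraries than in all SF/SCL libraries, and the ranges of the other 6 genes overlap.

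MCIDAS (ENSBTAG00000047087), the activator that starts the programme with E2F4 or E2F5, was among the most sparsely read of the 10 genes. It had 17 and 35 reads in LF/LCL, against 23, 74 and 15 in SF/SCL, which gave 19.9, 33.9, 23.9, 57.5 and 16.1 normalized reads. SF/SCL replicate 2 stood far above the other libraries, and the lowest library was of the same group. From counting error alone the 95% intervals of these libraries were 45.2 to 72.2 for SF/SCL replicate 2 and 9.01 to 26.6 for SF/SCL replicate 3, so the SF/SCL libraries differed by more than counting error. The group means were 26.9 ± 9.86 (SD, n = 2) and 32.5 ± 22.0 (SD, n = 3). The log2 fold change of -0.11 ± 0.63 (SE) had a 95% interval of -1.65 to 1.43 (adjusted p = 0.969), and leaving out SF/SCL replicate 2 made it 0.39, leaving out LF/LCL replicate 1 made it 0.26. A difference of the size seen for TP73 was not detectable for MCIDAS with these libraries.

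GMNC, which acts upstream of MCIDAS, was measured at 94.995 and 83.242 normalized reads in LF/LCL, against 150.755, 98.700 and 125.563 in SF/SCL. Both LF/LCL values were below all SF/SCL values, by a small margin for SF/SCL replicate 2. Its log2 fold change was -0.47 ± 0.28 (SE, adjusted p = 0.575). GMNC was named for its place beside MCIDAS, after its values had been seen.

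FOXN4 (ENSBTAG00000010847), a forkhead factor that acts with MCIDAS, was read as sparsely. It had 12 and 22 reads in LF/LCL, against 32, 29 and 13 in SF/SCL, or 14.1, 21.3, 33.3, 22.5 and 14.0 normalized reads. The highest library and the lowest library were both of SF/SCL, and counting error alone amounted to 17.7% to 28.9% of each value. The means were 17.7 ± 5.11 (SD, n = 2) and 23.3 ± 9.68 (SD, n = 3), with a log2 fold change of -0.32 ± 0.54 (SE, 95% interval -1.63 to 0.99, adjusted p = 0.869). Leaving out SF/SCL replicate 1 gave -0.03, and leaving out replicate 3 of that group gave -0.63.

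CCNO (ENSBTAG00000047594), an atypical cyclin needed for the mass production of centrioles, was the regulator with a higher log2 mean in LF/LCL. Its values were 103.2 and 131.6 normalized reads in LF/LCL, against 146.6, 119.7 and 54.7 in SF/SCL. SF/SCL replicate 3 was far below the other libraries, with a 95% counting interval of 40.8 to 72.0 where every other library had a lower bound of at least 82.8. The means were 117 ± 20.1 (SD, n = 2) and 107 ± 47.2 (SD, n = 3). The log2 fold change of 0.24 ± 0.46 (SE) had a 95% interval of -0.87 to 1.35 (adjusted p = 0.891), and it changed sign to -0.18 when SF/SCL replicate 3 was left out.

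E2F4 (ENSBTAG00000012063) and E2F5 (ENSBTAG00000009378) encode the E2F factors that repress cell cycle genes with the pocket proteins and that MCIDAS turns to the activation of centriole genes. E2F4 was measured at 539.5 and 544.0 normalized reads in LF/LCL, against 625.9, 526.1 and 715.8 in SF/SCL. E2F5 was measured at 220.5 and 121.0 in LF/LCL, against 145.6, 190.4 and 173.9 in SF/SCL. For E2F4 the lowest library was SF/SCL replicate 2, and for E2F5 the LF/LCL libraries were the highest and the lowest of all. Their E2F5 counting intervals, 190 to 254 and 101 to 144, were apart, so the LF/LCL replicates differed by more than counting error. On the log2 scale E2F4 differed by -0.19 ± 0.16 (SE, 95% interval -0.57 to 0.20, adjusted p = 0.703). For E2F5 it was -0.05 ± 0.31 (SE, 95% interval -0.79 to 0.70, adjusted p = 0.973), and it ranged from -0.48 to 0.38 depending on which LF/LCL library was left out. For E2F5 the linear means were nearly equal, 171 ± 70.4 (SD, n = 2) against 170 ± 22.7 (SD, n = 3).

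The 10 genes thus differed in how much they varied within SF/SCL. The coefficient of variation over the 3 SF/SCL libraries was 8.26% for MYB, 9.13% for RFX2 and 9.22% for FOXJ1. It was 13.3% for E2F5, 15.2% for E2F4, 20.9% for TP73 and 24.3% for RFX3, and reached 41.6% for FOXN4, 44.1% for CCNO and 67.7% for MCIDAS. MCIDAS and FOXN4, with the fewest reads, were among the 3 most variable genes. SF/SCL replicate 3 was the lowest of all libraries for MCIDAS, CCNO, FOXN4 and RFX3, and it was the highest for TP73, MYB and E2F4. For MCIDAS its 95% counting interval overlapped that of LF/LCL replicate 1 (9.01 to 26.6 against 11.6 to 31.9). The FOXN4 intervals of these libraries overlapped as well (7.43 to 23.9 against 7.27 to 24.6). For E2F4 the interval overlapped that of SF/SCL replicate 1 (663 to 772 against 577 to 678). For MCIDAS and FOXN4 each value also lay inside the interval of the other library, so those ranks were within counting error. For E2F4 neither value (715.8 and 625.9) lay inside the other interval, so the overlap does not place that rank within counting error. SF/SCL replicate 3 also had the lowest smooth muscle sum, and the part of its tissue composition in these values was not tested.

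**Figure D3:**
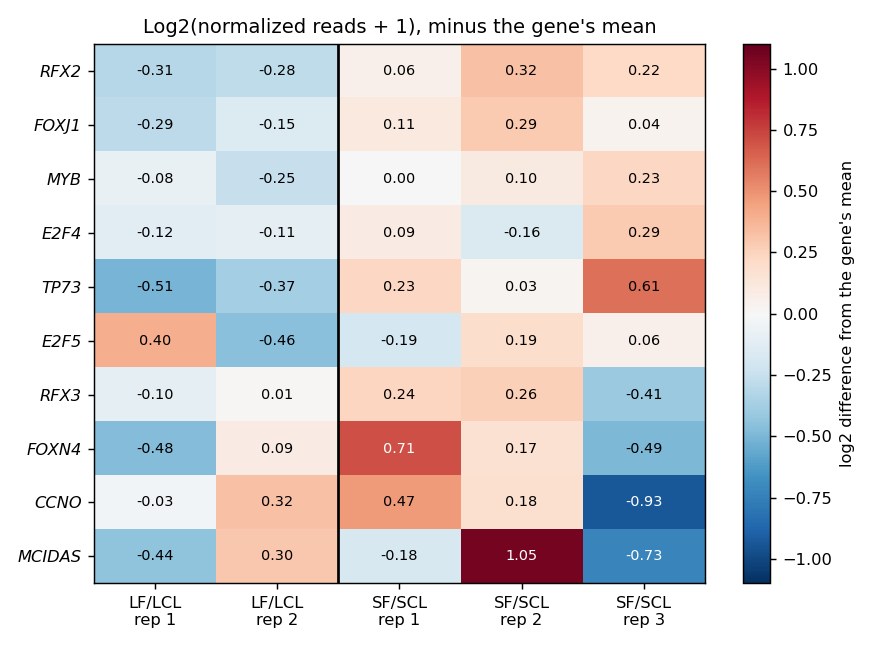
Log2 normalized reads of each regulator in each library, centred on the mean of that gene over the 5 libraries and shown as a colour and a number. SF/SCL replicate 3 holds low values of CCNO, MCIDAS, FOXN4 and RFX3 beside high values of TP73.

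Likeness between genes was measured as the root mean square difference of these centred log2 values over the 5 libraries, and is a description. The closest pair of regulators was FOXJ1 and RFX2, at 0.105 log2 units, followed by MYB and E2F4 at 0.140 and MYB and RFX2 at 0.145. Among 11951 genes with a mean of at least 50 normalized reads, the nearest to FOXJ1 were SPEF1 (0.0339), C22orf23 (0.0353), NUDT14 (0.0393), POLM (0.0436) and C8orf37 (0.0437). SPEF1 encodes a microtubule-bundling protein of motile cilia, and its values were 1253 and 1377 normalized reads in LF/LCL, against 1577, 1772 and 1557 in SF/SCL. Genes of the ciliary lists made up 9 of the 100 nearest to FOXJ1, 6 for RFX2, 3 for FOXN4 and 2 each for TP73 and RFX3. There was 1 such gene each for MCIDAS, MYB and CCNO, and 0 for E2F4 and E2F5, where these lists held 0.845% of all candidates. All of these profiles share the same 5 libraries and size factors.

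The level of each regulator was then set against the mean log2 value of the ciliated cell markers, which was 10.61 and 10.83 in LF/LCL, against 11.14, 11.20 and 11.02 in SF/SCL. The marker mean was 0.40 lower in LF/LCL (pooled SD 0.12), and both of its LF/LCL values were below all SF/SCL values. Subtracting it moves every regulator by that amount. FOXJ1 was then 0.03 higher in LF/LCL on the log2 scale (pooled SD 0.06, exact two-sided permutation p = 0.4), so that its difference from SF/SCL was smaller than the spread between libraries. RFX2 was 0.10 lower (difference -0.10, pooled SD 0.14) and TP73 0.33 lower (difference -0.33, pooled SD 0.32), and in both genes the groups overlapped. The other 7 regulators were higher relative to the markers in LF/LCL, by 0.07 for FOXN4, 0.12 for MYB, 0.21 for E2F4, 0.28 for MCIDAS and 0.35 for E2F5. For RFX3 (0.32, pooled SD 0.25) and CCNO (0.63, pooled SD 0.55) both LF/LCL values were above all SF/SCL values, with the smallest exact p that this design allows, 0.2. The CCNO groups were barely apart, at -3.91 for the lowest LF/LCL and -3.93 for the highest SF/SCL library. Both differences rested largely on SF/SCL replicate 3, without which they were 0.26 for CCNO and 0.15 for RFX3. That of TP73 was -0.13 without the same library. Against the median of the markers in place of their mean, FOXJ1 was 0.12 higher in LF/LCL (exact p = 0.2) and RFX2 differed by -0.01. The number of regulators lower relative to the markers was 2 of 10 with all libraries, 5 when LF/LCL replicate 1 was left out and 4 when SF/SCL replicate 3 was.

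**Figure D4:**
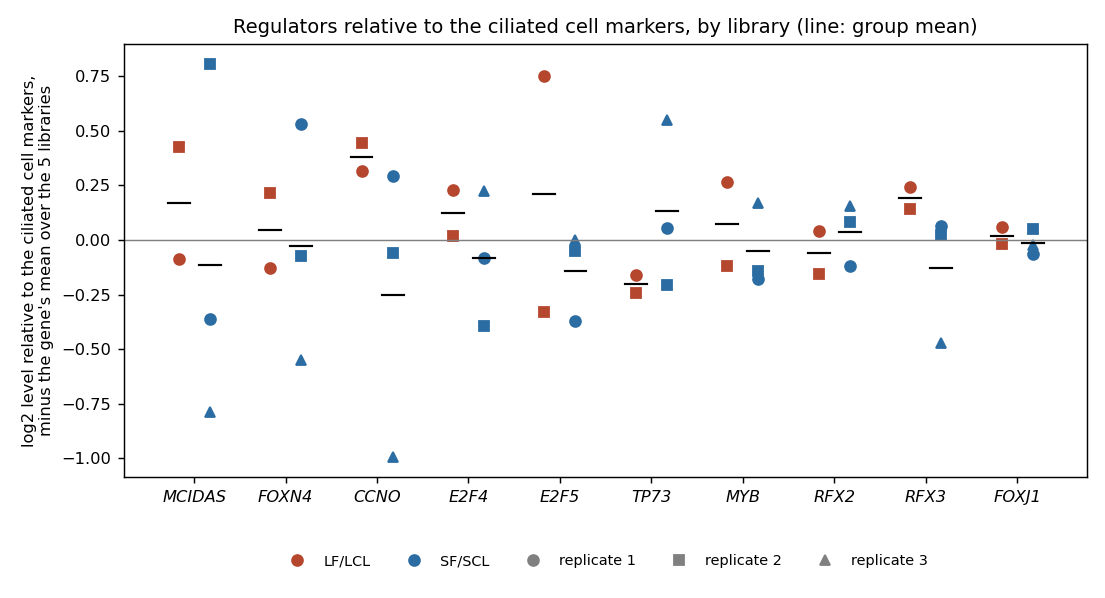
Log2 level of each regulator relative to the ciliated cell markers in each library, centred on the mean of the gene over the 5 libraries, with group means as black lines. FOXJ1 stays close to 0 in all libraries, and RFX3 and CCNO are lowest in SF/SCL replicate 3.

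The genes that work beside the regulators were taken from lists. Of 23 programme partners (the geminin family, cell cycle partners and Notch genes), 12 were lower and 11 higher in LF/LCL, with a median log2 fold change of -0.06, and 1 was lower at an unadjusted p under 0.05. That gene was DLL1, a Notch ligand (-0.59 ± 0.21, SE). RBL1, a pocket protein that binds E2F4 and E2F5 (0.45 ± 0.19), and CCNA1, a cyclin (0.32 ± 0.13), had the next smallest p values. Both LF/LCL values of DLL1 were below all SF/SCL values, and both of RBL1 and CCNA1 were above them. No partner passed an adjusted p of 0.05 with limma or DESeq2.

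Of 20 centriole amplification genes, 13 were lower and 7 higher, with a median of -0.08, and 2 were lower at an unadjusted p under 0.05. CEP135, a structural protein of the centriole cartwheel, was measured at 188 and 268 normalized reads in LF/LCL, against 439, 636 and 581 in SF/SCL. Its values did not overlap, and its log2 fold change of -1.28 ± 0.23 (SE) was larger than that of any of the 10 regulators. Its adjusted p was 0.212 with limma and 0.000775 with DESeq2. CETN2, a centrin of the centriole lumen (-0.34 ± 0.12), and CCDC78, a deuterosome component (-0.30 ± 0.13), followed.

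Of 36 tested genes of basal bodies and ciliogenesis, 32 were lower and 4 higher, with a median of -0.27. Among them 11 were lower at an unadjusted p under 0.05 and 22 did not overlap, all lower in LF/LCL. KIF17, a kinesin of cilia (-0.61 ± 0.15), BBS9, a subunit of the BBSome (-0.55 ± 0.12), and IFT172, a subunit of the intraflagellar transport complex (-0.51 ± 0.12), had the smallest p values. DESeq2 called BBS9 and IFT172 (adjusted p = 0.0189 and 0.0330).

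Among the 45 ciliated cell markers 42 were lower and 3 higher, with a median of -0.40, and 27 did not overlap, all lower. Of these 45 genes 19 were lower at an unadjusted p under 0.05 with limma, none passed an adjusted p of 0.05, and DESeq2 called 6. SNTN, a protein of the ciliary tip (-0.86 ± 0.17), ARMC3 (-0.78 ± 0.15) and RSPH1, a radial spoke head protein (-0.71 ± 0.14), had the smallest p values. The medians of both ciliary lists lay on the same side of 0 as that of the regulators (-0.23), and the medians of the partner and centriole lists were nearer to 0. No difference between lists was tested.

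**Figure D5:**
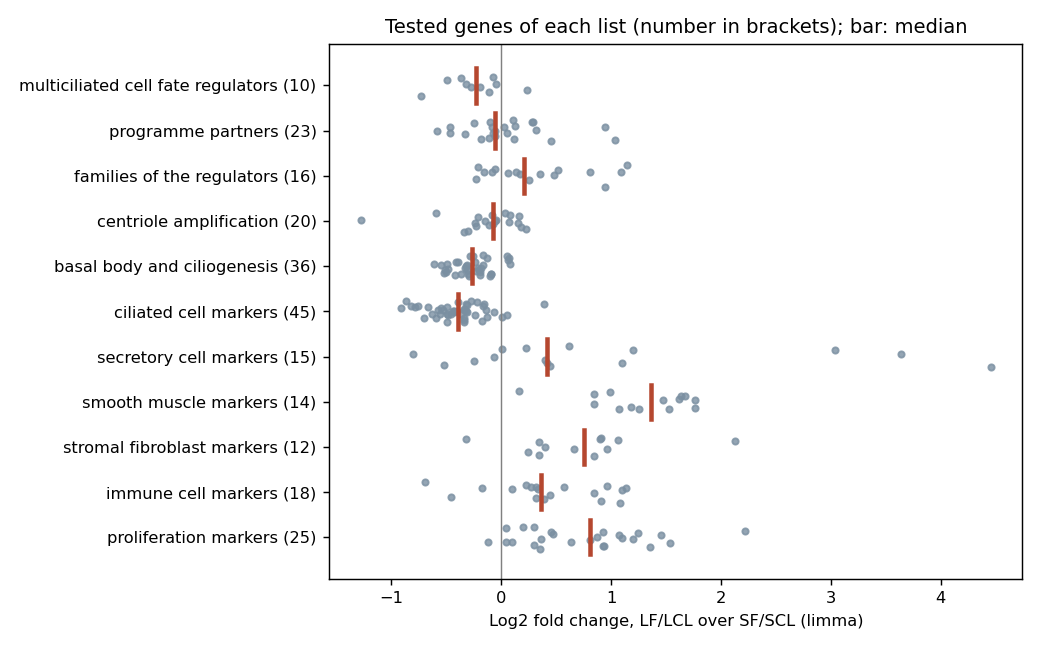
Log2 fold change (LF/LCL minus SF/SCL) of every tested gene of each list, with the list median as a line. The ciliated cell markers have a median of -0.40 and the smooth muscle markers of 1.37, and the 10 regulators have a median of -0.23.

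Markers of other cell types were counted in the same way. All 14 tested smooth muscle markers were higher in LF/LCL, with a median log2 fold change of 1.37, and 12 did not overlap; LMOD1, DES and PLN had the smallest p values. Of 12 stromal fibroblast markers 11 were higher (median 0.75), and of 25 proliferation markers 24 were higher (median 0.80, 14 without overlap). Of 15 tested entries of the secretory list, which also holds epithelial keratins, claudins and EPCAM, 11 were higher (median 0.42). Of 18 immune cell markers 15 were higher (median 0.36). Among the secretory markers FOLR1 (ENSBTAG00000021007), a folate receptor, had a log2 fold change of 3.64 ± 0.71 (SE). Its SF/SCL values were low, at 3.12, 4.66 and 1.07 normalized reads. A second FOLR1 entry, ENSBTAG00000038532, had higher values and changed by 4.46 ± 1.68 (SE). DESeq2 did not call that second entry (adjusted p = 0.433). KRT19, an epithelial keratin, was lower (-0.81 ± 0.15) while PAX8, a factor of secretory cells, was higher (0.62 ± 0.15). DESeq2 called 10 genes of these 5 lists, 9 of them higher in LF/LCL, and limma and edgeR called none. Of the higher genes 5 were smooth muscle markers (DES, LMOD1, TAGLN, MYLK and PLN, DESeq2 adjusted p = 0.00260 to 0.0430). The others were 3 secretory markers and the immune marker IL2RG (DESeq2 adjusted p = 0.00718). These secretory markers were FOLR1 entry ENSBTAG00000021007, LTF and PAX8 (DESeq2 adjusted p = 0.00103, 0.0117 and 0.0430). KRT19 was called lower (adjusted p = 0.000623). TAGLN, MYLK and LTF were named after their values had been seen. The part of tissue composition in the values of the 10 regulators was not tested.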

How the data were processed

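PolyA RNA of the ampulla was sequenced by the authors, and the libraries of 5 cows were kept. Per the labels and the study's methods, base calling used CASAVA 1.8.2, alignment used TopHat2 2.0.8 with Bowtie2 2.1.0 and SAMtools 0.1.18 to the masked UMD 3.1 cattle assembly, and uniquely mapped reads were counted in Ensembl genes with HTSeq 0.5.4p2. The deposited unit is a normalized signal: read counts that the authors divided by 1 size factor per library from DESeq 1.12.1. A strand setting was not stated, so reads of overlapping, antisense or near-identical genes cannot be told apart.

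Groups came from the labels, which name no batch. The members and lists were chosen with earlier results of these data known. Dividing by the value of 1 read gave whole reads within 0.0006 for 100% of values in 4 libraries and 99.99% in SF/SCL replicate 3, and the recovered totals set the depth. Counting intervals are exact Poisson 95% intervals and cover counting error only. Genes with a mean above 5 (15815) were tested with limma 3.58.1 on log2(value + 1), with trend and robust settings, two-sided, and Benjamini-Hochberg adjustment over all of them, and fold changes are on that scale, which understates changes of genes with low values. The p-values of limma, edgeR and DESeq2 use the spread between these 5 cows, with the variance of each gene moderated by that of other genes. Ratios to marker means were compared with the exact permutation test over libraries. The fit was tested on simulated data. The text names the 10 members, the 3 genes of smallest limma p in a list, the 5 genes nearest to FOXJ1, and the genes said to be chosen later. Alternatives were edgeR 4.0.16 and DESeq2 1.42.0 on the recovered reads, limma-voom, pseudocounts of 0.5 and 5, other filters, scalings and variance settings, other marker references, and leaving out each library. R 4.3.3 and scipy 1.17.1 were used. The DESeq test of the study was not repeated, and promoter sequences were not analysed here.

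The other lists were programme partners, member families, centriole amplification, basal body and ciliogenesis, and markers of ciliated, secretory, smooth muscle, stromal fibroblast, immune and proliferating cells. DEUP1 was measured under its older symbol CCDC67. Gene order was read from RefSeq for another assembly (NIAB-ARS_B.indTharparkar_mat_pri_1.0), and no coordinates are given.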

Additional observations from a re-analysis of the deposited data

How the results depend on the processing

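The number of regulators lower in LF/LCL was 9 in the main fit, 8 with edgeR or DESeq2, and 6 to 10 when libraries were left out. The number without overlap was 4 in the main fit, beside 30.1% of all genes tested, and 4 to 6 when libraries were left out. With fewer libraries this number cannot fall, and the share of all genes in those settings is not given here. At an unadjusted limma p under 0.05 the number was 3 in the main fit. It was 2 without the trend and robust settings and 4 with library size scaling. The median fold change of the regulators was below 0 under each alternative, from -0.36 to -0.20 when libraries were left out and from -0.27 to -0.22 otherwise. The number with an adjusted p under 0.05 moved from 0 to 2 with DESeq2 (RFX2 and TP73) and was 0 to 0 when libraries were left out. The number lower relative to ciliated cell markers moved from 2 to 10 with secretory cell markers as the reference, and ranged from 2 to 5 when libraries were left out. That secretory reference holds both FOLR1 entries and LTF, which had the largest fold changes of its list. E2F5 turned to 0.0052 with edgeR and 0.0031 with DESeq2. Leaving out libraries in turn turned the sign of CCNO (-0.18 to 0.52), E2F5 (-0.48 to 0.38), MCIDAS (-0.50 to 0.39) and RFX3 (-0.30 to 0.039), and the cause was not tested. Where an LF/LCL library was left out, the remaining library was assumed to vary like the SF/SCL libraries. FOXJ1, RFX2, TP73, MYB, E2F4 and FOXN4 had fold changes below 0 in each alternative. The groups held different cows, so there was no pairing between them, and the replicate numbers used here follow accession order. Depth limits MCIDAS and FOXN4, which had at most 74 and 32 reads in a library.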

Other observations

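Of 21 relatives in the families of the regulators, 16 passed the minimum level, and 11 of these were higher and 5 lower in LF/LCL, with a median log2 fold change of 0.21. E2F1, a factor that activates cell cycle genes, was measured at 35.2 and 26.1 normalized reads in LF/LCL, against 16.6, 11.7 and 11.8 in SF/SCL. Its groups did not overlap, and its log2 fold change was 1.14 ± 0.46 (SE, adjusted p = 0.426 with limma). MYBL2, the relative of MYB in dividing cells, had a log2 fold change of 0.95 ± 0.60 (SE, adjusted p = 0.599), and its highest value was in SF/SCL replicate 3. The E2F1 value stood beside higher proliferation markers in LF/LCL (24 of 25), and a relation between them was not tested.

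CCNO, MCIDAS and CDC20B are consecutive genes in the RefSeq annotation of the assembly named above. CDC20B was measured at 24.6 and 70.7 normalized reads in LF/LCL, against 49.9, 32.6 and 4.29 in SF/SCL. All of the 3 neighbours were lowest in SF/SCL replicate 3, while their highest values were in different libraries. For MCIDAS that lowest value was within counting error of LF/LCL replicate 1. This neighbourhood was looked at after the values had been seen. CCDC67 (DEUP1), which builds the deuterosome, was measured at 235 and 404 normalized reads in LF/LCL, against 349, 384 and 297 in SF/SCL, and its groups overlapped.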
